A study of Mus musculus with 6 samples.

Results

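Transcripts of 10 BCL2 family genes were measured by RNA sequencing in mouse macrophages exposed to medium conditioned by cancer cells, with or without the lipids of that medium. The members were taken by symbol: the pro-survival genes Bcl2, Bcl2l1 and Mcl1, the pore-forming effectors Bax and Bak1, and the BH3-only genes Bcl2l11, Bbc3, Pmaip1, Bid and Bad. Each matched 1 Ensembl identifier among the 46603 genes of the count tables, and all 10 passed the filter on low counts, with at least 51 counts in every library. The cells were bone marrow-derived macrophages of C57BL/6/J mice aged 7 weeks, grown in serum-containing DMEM with 20% medium from L929 cells, a fibroblast line that secretes macrophage growth factor. On day 6 they were replated at 800000 cells per well, and 6 h later they received cancer cell medium that kept its lipids (3 libraries) or that lacked them (3 libraries), called lipid and lipid-free replicates below. Both groups therefore received cancer cell medium, and macrophages without it were not analysed here. Which cancer cells were used, how their medium was freed of lipids, how long exposure lasted and how many mice gave cells is not given in the sources.

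The BCL2 family controls the mitochondrial route of apoptosis. Pro-survival proteins hold the effectors BAX and BAK in check at the mitochondrial outer membrane, and BH3-only proteins, which sense stress or loss of growth factor, bind the pro-survival proteins or activate the effectors directly. Once BAX or BAK open the membrane, cytochrome c is released and caspases are activated. In macrophages MCL1 is a short-lived protein that contributes to survival, and NOXA, the product of Pmaip1, binds MCL1 preferentially among the pro-survival proteins.

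Libraries held 19429022 to 25323053 counts. Macrophage markers were high in each, with a summed level of 29181 to 29537 counts per 1000000 after scaling (CPM) over 8 genes with lipids and 29502 to 34378 CPM without. Of these 8 markers, Itgam and Fcgr1 rose and Cd68 fell with lipids. Marker lists of granulocytes, B cells, dendritic cells, platelets, erythroid cells, mast cells and epithelium each summed to under 2 CPM in every library, with Ly6g, Pax5, Hba-a1, Hbb-bs, Mcpt4, Fcer1a, Ms4a2, Krt8 and Krt18 at 0 counts throughout. The T cell list summed to 6.24 to 7.06 CPM with lipids and 11 to 17.4 CPM without, nearly all of it Cd4, while Cd3e and Cd8a were at 0. The fibroblast list summed to 98.2 to 106 CPM with lipids and 98.3 to 136 CPM without. The part of these lists in the results below was not tested, and in bulk RNA a smaller share of a cell type cannot be told apart from less RNA per cell.

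Replicate 1 without lipids stood apart from the other libraries, at -22.96 on the second principal component (21.8% of variance), where the others lay between -1.17 and 13.95. Members of the family varied more without lipids. Their median SD of log2 CPM was 0.0746 with lipids and 0.209 without, against 0.0738 with lipids and 0.135 without over all tested genes. The spread was wider without lipids for 9 of 10 members, against 74.1% of all tested genes.

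Transcripts of the pro-survival gene Mcl1 were fewer, and those of Pmaip1, which encodes the MCL1 antagonist NOXA, more abundant, when lipids were present. Mcl1 fell by 16.7% and Pmaip1 rose by 31.5%, and the other 8 members did not pass the test. In all, 2 of 10 members passed an adjusted p of 0.05 in edgeR's quasi-likelihood test, 1 in each direction, against 11.5% of all 12767 genes tested (4.58% higher and 6.87% lower). With every library kept, 1 member was higher in each of the 7 other fits, among which the share of all genes higher was 4.75% with median-of-ratios scaling, 9.72% with library totals alone and 4.4% without the low-count filter. It was 5.03% with a filter of 1 CPM, 4.87% in DESeq2, 4.7% in limma-voom and 5.6% with the replicate block. In the same order the share lower was 6.7%, 4.67%, 5.42%, 7.27%, 7.37%, 6.62% and 7.34%, with 0 members lower under library totals alone, 2 without the filter and 1 in the other 5. Fold changes were small, and 9 of 10 were negative, as were 50.8% of those of all tested genes. The members' median log2 fold change was -0.22, beside -0.0032 for all tested genes. CPM values of the groups did not overlap for 3 of 10 members, Mcl1, Bak1 and Pmaip1, against 30.5% of tested genes.

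**Figure D1:**
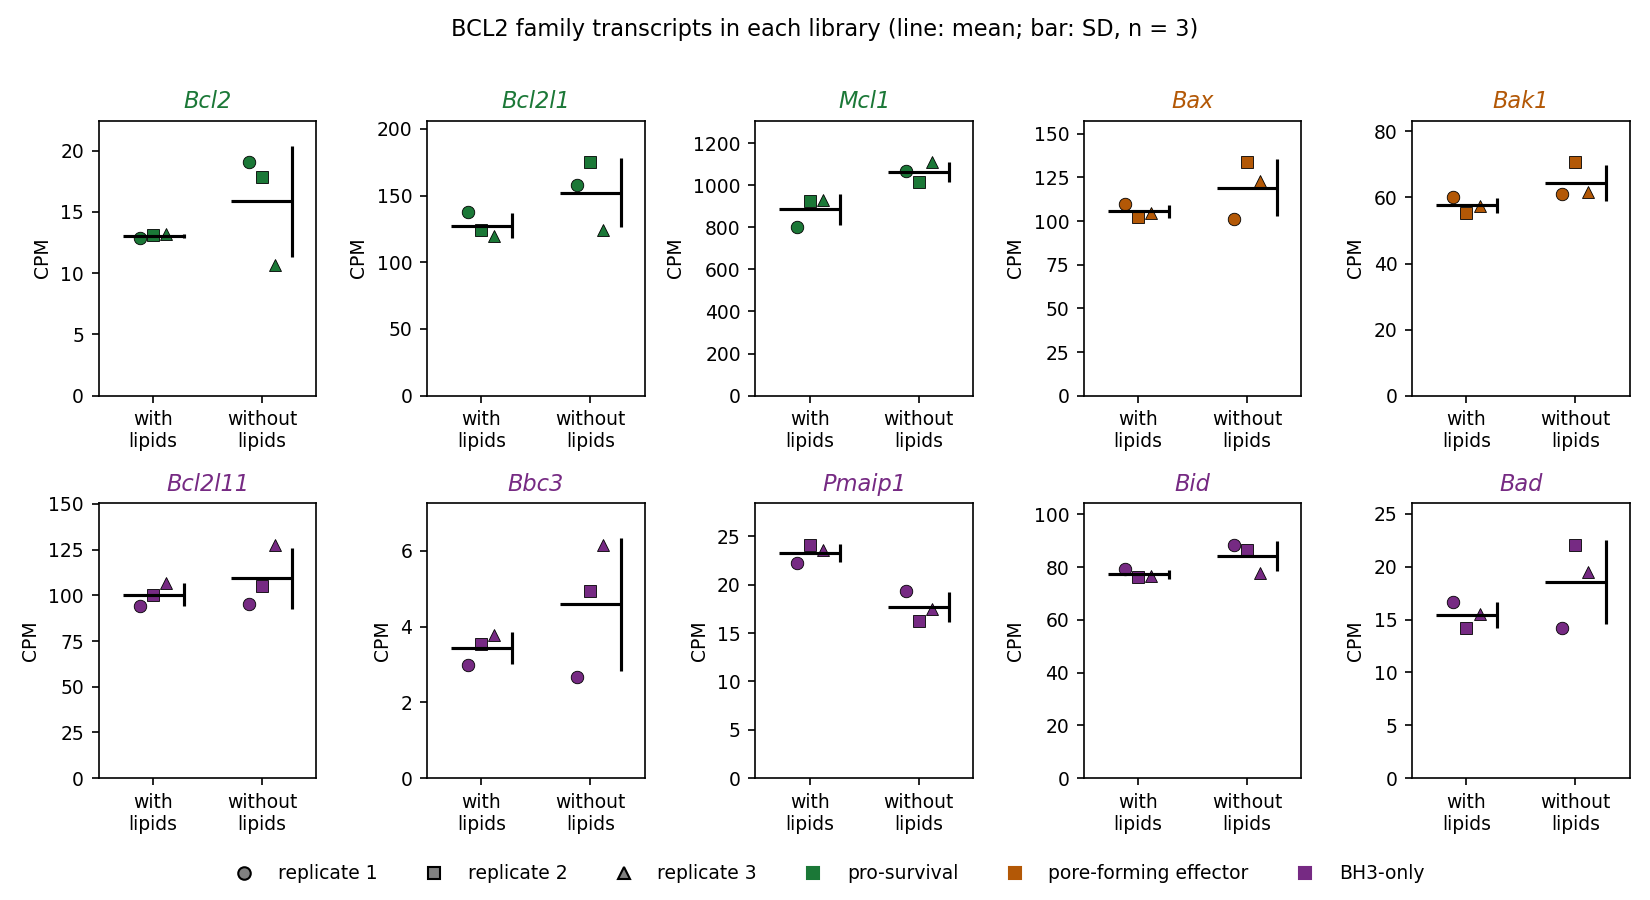
CPM (vertical axes from 0, each gene on its own scale) of the 10 members in the 3 libraries with lipids and the 3 without, with horizontal lines at the group means and vertical bars for the SD. Mcl1 was lower and Pmaip1 higher in every library with lipids than in any without, while Bcl2, Bbc3 and Bad were scattered in the group without lipids.

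**Figure D2:**
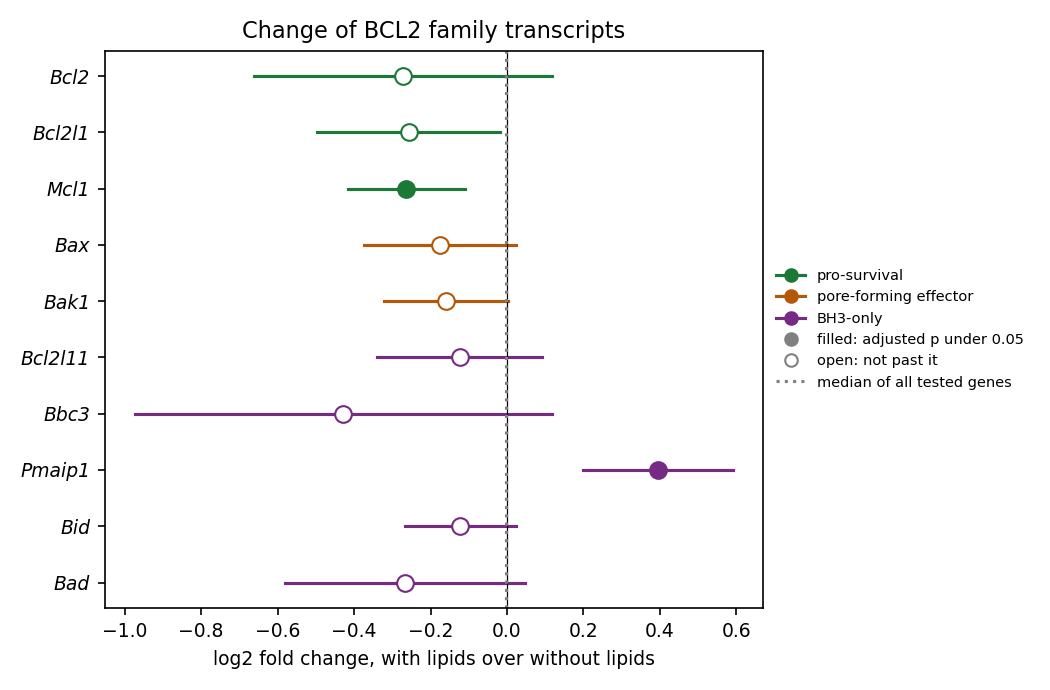
Log2 fold change of each member, with lipids over without lipids (horizontal axis), with 95% intervals from edgeR, coloured by role. Mcl1 at -0.26 and Pmaip1 at 0.39 passed the test, and the intervals of the other members except Bcl2l1 include 0.

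Mcl1 encodes a pro-survival protein that binds BAK and several BH3-only proteins. Its gene lies on chromosome 3 (95658788 to 95663176, GRCm38, forward strand). Mcl1 was at 801, 925 and 930 CPM with lipids, against 1066, 1013 and 1108 CPM without. Every library with lipids was below every library without, by at least the gap between 930 and 1013 CPM. Mcl1 averaged 885 ± 73.1 CPM in cells given lipids and 1062 ± 47.2 CPM in cells given lipid-free medium (SD, n = 3 each). The log2 fold change was -0.26 (SE 0.07, edgeR adjusted p = 0.0331). The call was lost when libraries were scaled by their totals alone (adjusted p = 0.103) and in 5 of 6 fits that left out a library. The 1 such fit that kept it lacked lipid-free replicate 1 (adjusted p = 0.011). Dropping lipid replicate 1, 2 or 3 gave adjusted p = 0.133, 0.0855 and 0.0734, dropping lipid-free replicate 2 or 3 gave 0.0621 and 0.0659, and the log2 fold change lay between -0.30 and -0.19 over all 13 alternatives.

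The Mcl1 promoter is shown because Mcl1 was the only member past the test for which a window was at hand, and that of Bcl2l11 because its product, BIM, is a main BH3-only partner of MCL1. Where RefSeq listed several start sites, the one nearest the GENCODE gene start was used. Both windows run from 250 bases before to 50 after the RefSeq start site (GRCm38.p6) and are read on the gene's forward strand, at chr3:95658471-95658770 and chr2:128125788-128126087. Capitals mark matches to the motifs described after them.
Mcl1: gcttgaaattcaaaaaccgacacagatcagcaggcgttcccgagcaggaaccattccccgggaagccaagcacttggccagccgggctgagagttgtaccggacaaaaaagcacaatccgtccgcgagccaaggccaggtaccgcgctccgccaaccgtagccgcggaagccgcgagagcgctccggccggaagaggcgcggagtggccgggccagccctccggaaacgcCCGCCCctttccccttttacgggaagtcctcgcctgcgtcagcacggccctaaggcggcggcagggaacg
Bcl2l11: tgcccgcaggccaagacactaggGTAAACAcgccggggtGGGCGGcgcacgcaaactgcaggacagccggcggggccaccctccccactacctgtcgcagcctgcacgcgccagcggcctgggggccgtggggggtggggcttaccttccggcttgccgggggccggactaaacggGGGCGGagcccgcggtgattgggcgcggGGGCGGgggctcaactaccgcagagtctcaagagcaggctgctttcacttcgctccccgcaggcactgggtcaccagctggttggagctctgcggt
The windows were searched on both strands for a CRE (TGACGTCA), a C/EBP-ATF element (TGATGNAA), a STAT site (TTCNNNGAA), a FOXO site (GTAAACA), an E-box (CACGTG) and a GC box (GGGCGG). Mcl1 held 1 GC box, on the reverse strand at position -20 from the start site, and no other match. Bcl2l11 held 3 GC boxes and 1 FOXO site at position -227. A GC box was present in 7 of the 9 members with a window and in 35.6% of all 32817 RefSeq windows of this length. These shares were not compared at matched GC content. The members' windows held from 52.3% GC (Bcl2l1) to 76% GC (Bcl2 and Bbc3), with 65.7% for Mcl1 and 71% for Bcl2l11. The median over all windows was 52.7%. The FOXO site was found in 1 of 9 members (Bcl2l11) and in 3.65% of all windows, and the E-box in 1 of 9 (Bax) and in 7.15%. The CRE, C/EBP-ATF and STAT letters were in none of the 9 windows and in 1.79%, 3.97% and 8.29% of all. These matches are letters in a window and say nothing of binding.

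Bcl2l1 and Bcl2, the other pro-survival members, had negative fold changes of like size and wide intervals. Bcl2l1 encodes BCL-XL and lies on chromosome 2 (152780668 to 152831728). It was at 138, 124 and 120 CPM with lipids, against 158, 175 and 124 CPM without. Replicate 3 without lipids lay among the libraries with lipids, so the groups overlapped. The log2 fold change was -0.26 (95% interval -0.50 to -0.02, edgeR adjusted p = 0.16). Bcl2, the founding member of the family, lies on chromosome 1 (106538178 to 106714274). Its levels were 12.9, 13.1 and 13.2 CPM with lipids, against 19.0, 17.9 and 10.7 CPM without. The 3 libraries with lipids were nearly equal and lay between the 2 high values and the 1 low value of the other group. The log2 fold change of Bcl2 was -0.27 (95% interval -0.66 to 0.12, edgeR adjusted p = 0.36). With lipid-free replicate 3 dropped both genes passed, Bcl2 at -0.49 (adjusted p = 0.00617) and Bcl2l1 at -0.38 (adjusted p = 0.00799), and Bcl2l1 also passed without the low-count filter (adjusted p = 0.00936).

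Bax and Bak1 encode the effectors that form the pore in the mitochondrial outer membrane, and neither passed the test. At an unadjusted p under 0.05 the count was also 0 of 2 in edgeR, and it was 0 after adjustment in DESeq2 and limma-voom. Bax lies on chromosome 7 (45461697 to 45466898). It was at 110, 102 and 105 CPM with lipids, against 101, 134 and 123 CPM without. Replicate 1 without lipids was the lowest of all 6 libraries, and the other 2 of its group were the highest. The log2 fold change of Bax was -0.17 (95% interval -0.37 to 0.02, edgeR adjusted p = 0.248). Bak1, on chromosome 17 (27019810 to 27029009), was at 60.0, 55.4 and 57.5 CPM with lipids, against 61.1, 70.6 and 61.6 CPM without. The groups did not overlap, though the gap was about 1 CPM. The log2 fold change of Bak1 was -0.16 (95% interval -0.32 to 0.0023, edgeR adjusted p = 0.193). Bak1 shares 437 exonic bases with Ggnbp1 on the other strand, which held 183 counts in all against 7831.

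Of the 5 BH3-only genes 1 rose, Pmaip1, and 4 did not pass. Pmaip1 lies on chromosome 18 and is a target of p53 and of stress-induced transcription factors. Its levels were 22.2, 24.1 and 23.5 CPM with lipids, against 19.4, 16.3 and 17.5 CPM without. Every library with lipids was above every library without. Pmaip1 averaged 23.3 ± 0.976 CPM in cells given lipids and 17.7 ± 1.55 CPM in cells given lipid-free medium (SD, n = 3 each). The log2 fold change was 0.39 (SE 0.09, edgeR adjusted p = 0.0164). Pmaip1 passed in all 7 alternatives that kept every library, library totals alone included. The call was lost on dropping lipid replicate 2 or 3 (adjusted p = 0.0985 and 0.0764) or lipid-free replicate 2 (adjusted p = 0.0760), and over all 13 alternatives its log2 fold change lay between 0.34 and 0.47.

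Bcl2l11, whose product BIM binds all main pro-survival proteins and is induced when growth factor is withdrawn, lies on chromosome 2 (128126038 to 128162547). It was at 94.4, 99.9 and 107 CPM with lipids, against 95.1, 105 and 128 CPM without. Only replicate 3 without lipids lay above the range of the other group, and the log2 fold change was -0.12 (95% interval -0.34 to 0.09, edgeR adjusted p = 0.465). Bbc3 encodes PUMA, a p53 target that likewise binds all main pro-survival proteins, and lies on chromosome 7 (16308393 to 16318205). With 2.98, 3.54 and 3.79 CPM with lipids, against 2.68, 4.93 and 6.15 CPM without, it had the fewest counts of the 10 members. Replicate 1 without lipids was the lowest library and the other 2 of its group the highest. Its log2 fold change of -0.43 had the widest interval of the 10, -0.97 to 0.12 (edgeR adjusted p = 0.303).

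Bid links death receptors to mitochondria once caspase-8 cleaves its product, and lies on chromosome 6 (120891930 to 120916853). It was at 79.2, 76.1 and 76.6 CPM with lipids, against 88.4, 86.4 and 77.7 CPM without. Replicate 3 without lipids lay inside the range of the group with lipids, and the log2 fold change was -0.12 (95% interval -0.27 to 0.02, edgeR adjusted p = 0.271). Bad encodes a protein that growth factor signalling keeps inactive by phosphorylation, and lies on chromosome 19 (6941861 to 6951899). Its levels were 16.7, 14.2 and 15.5 CPM with lipids, against 14.3, 22.1 and 19.5 CPM without. Replicate 1 without lipids lay with the other group, and the log2 fold change was -0.27 (95% interval -0.58 to 0.05, edgeR adjusted p = 0.262). Bid and Bad overlap Bcl2l13 and Gpr137 on the other strand, over 628 and 524 exonic bases. Those partners held 5273 and 2004 counts, against 10375 for Bid and 2182 for Bad. Unless strand was used in counting, the overlap may have affected the counts of Bid and Bad, in a direction that cannot be told here.

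Per length, Mcl1 stood far above the rest of the family. In CPM per kilobase of exon its level was 259 ± 21.4 with lipids and 311 ± 13.8 without (SD, n = 3 each), above 99.1% of tested genes. Bax followed at 67.0 ± 2.43 with lipids and 75.6 ± 10.4 without, then Bcl2l1 at 27.8 ± 2.06 with lipids and 33.2 ± 5.61 without, Bak1 at 23.9 ± 0.95 with lipids and 26.8 ± 2.23 without, and Bid at 21.8 ± 0.471 with lipids and 23.7 ± 1.60 without. Lower in the order came Bcl2l11 at 12.5 ± 0.768 with lipids and 13.6 ± 2.07 without. Pmaip1 was at 8.52 ± 0.357 with lipids and 6.48 ± 0.566 without, and Bad at 6.05 ± 0.481 with lipids and 7.27 ± 1.55 without. Bbc3, at 1.62 ± 0.194 with lipids and 2.16 ± 0.829 without, and Bcl2, at 1.43 ± 0.0173 with lipids and 1.73 ± 0.496 without, were last. With lipids the ranges of neighbours in this order overlapped for Bbc3 and Bcl2 only. Without lipids they also overlapped for Bcl2l1 and Bak1, and for Pmaip1 and Bad, which stood in the reverse order there. Mcl1 made up 88.2%, 90.5% and 90.8% of the summed per-length level of the 3 pro-survival genes with lipids, against 89.5%, 88.1% and 92.0% without. Exon lengths were unions over all annotated isoforms, which lowers the value of a gene with a long rarely used exon.

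Pro-survival and pro-death members were then set against each other within each library. The score, the mean log2 CPM of the 3 pro-survival genes minus that of the 7 pro-death genes, was 1.71, 1.75 and 1.68 with lipids, against 2.17, 1.89 and 1.51 without. The libraries with lipids lay inside the range of the others, so the groups overlapped. Its mean was 1.72 ± 0.0334 with lipids and 1.86 ± 0.331 without (SD, n = 3 each), a difference of -0.14 that was smaller than the spread without lipids. The pro-survival mean alone was 6.82, 6.84 and 6.83 log2 CPM with lipids, against 7.21, 7.20 and 6.83 without, and the pro-death mean was 5.10, 5.09 and 5.15 with lipids, against 5.03, 5.31 and 5.32 without. Dropping lipid-free replicate 1 turned the difference in score to 0.015, and dropping lipid-free replicate 3 gave -0.31. No p is given for the score, since the members were chosen with earlier results of these data known.

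Ratios of counts within a library do not depend on scaling. The ratio of Mcl1 to Pmaip1 counts was 36.1, 38.4 and 39.5 with lipids, against 55.1, 62.3 and 63.3 without. The groups were apart, with means of 38.0 ± 1.75 with lipids and 60.2 ± 4.46 without (SD, n = 3 each). This ratio joins the 2 members that passed the test and adds no further evidence. The Mcl1 to Bcl2l11 ratio was 8.49, 9.26 and 8.71 with lipids, against 11.2, 9.64 and 8.69 without. Replicate 3 without lipids fell inside the range of the other group. For Bcl2 to Bax the ratio was 0.117, 0.128 and 0.126 with lipids, against 0.188, 0.134 and 0.0869 without, so that the group without lipids held both the highest and the lowest value.

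**Figure D3:**
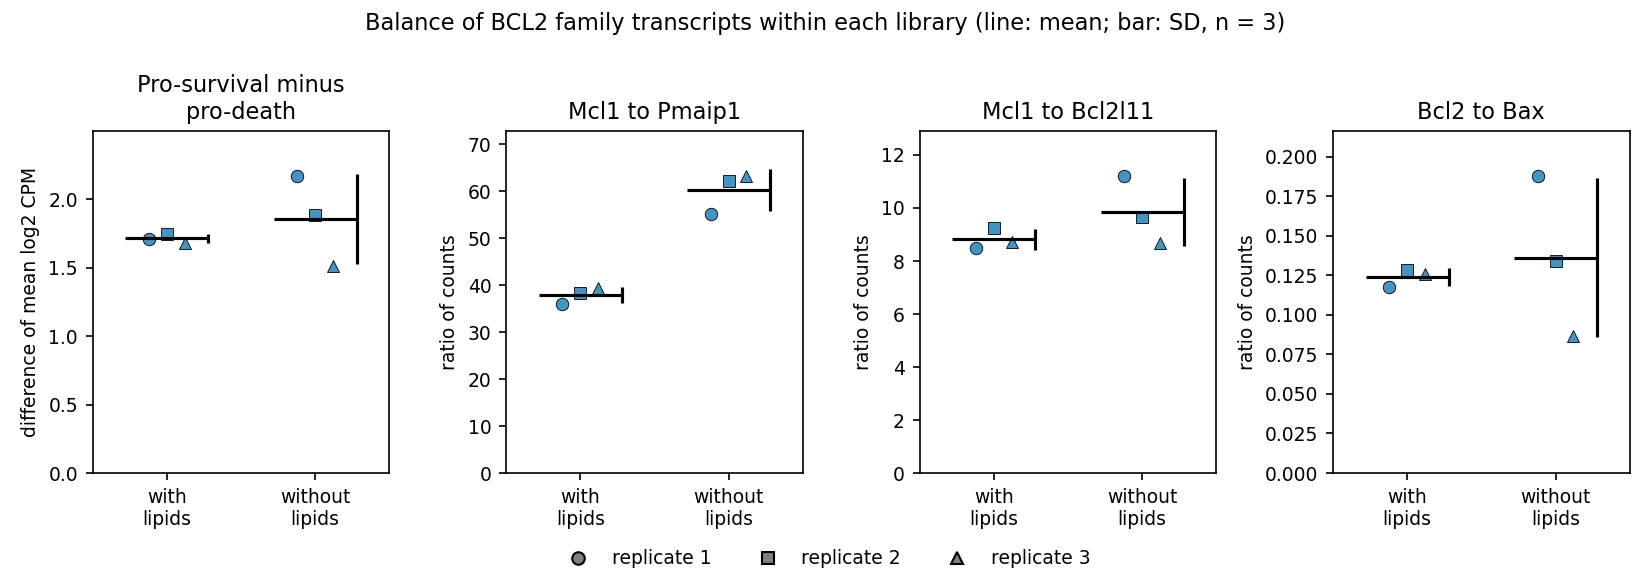
Pro-survival minus pro-death score (difference of mean log2 CPM) and 3 ratios of counts in each library with lipids and without, with means and SD (n = 3 each). The ratio of Mcl1 to Pmaip1 separated the groups, at 36.1 to 39.5 with lipids and 55.1 to 63.3 without, and the score and the other ratios overlapped.

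In lipid-free replicate 1 several pro-death members deviated opposite to Bcl2, and in replicate 3 some did so opposite to Bcl2 and Bcl2l1. Relative to the mean of its own group, replicate 1 was at -0.68 for Bbc3, -0.36 for Bad, -0.22 for Bax and -0.19 for Bcl2l11 on the log2 CPM scale, and at 0.31 for Bcl2. Pmaip1 (0.13) and Bid (0.07) did not follow the other pro-death members there. Bcl2l1 (0.07), Mcl1 (0.0064) and Bak1 (-0.07) lay close to the group mean in replicate 1, so its pro-survival side rested on Bcl2. In replicate 3 without lipids Bcl2 was at -0.52 and Bcl2l1 at -0.28, while Bbc3 was at 0.49 and Bcl2l11 at 0.23. Mcl1 (0.06) did not follow the other pro-survival members in replicate 3, nor did Bid (-0.11), Bak1 (-0.06) and Pmaip1 (-0.01) follow those pro-death members. Replicate 2 without lipids was above its group mean for Bcl2, Bcl2l1, Bax, Bak1, Bbc3, Bid and Bad. With lipids, deviations of the 10 members stayed between -0.19 and 0.14. The summed level of 5 proliferation markers also differed among libraries without lipids, at 772, 563 and 495 CPM in replicates 1, 2 and 3, against 801, 787 and 734 CPM with lipids, and its part in the scatter was not tested. Of these 5 markers 2 were called higher with lipids, Top2a (0.46, edgeR adjusted p = 0.0420) and Birc5, and 0 lower. The shares of all tested genes were 4.58% higher and 6.87% lower.

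**Figure D4:**
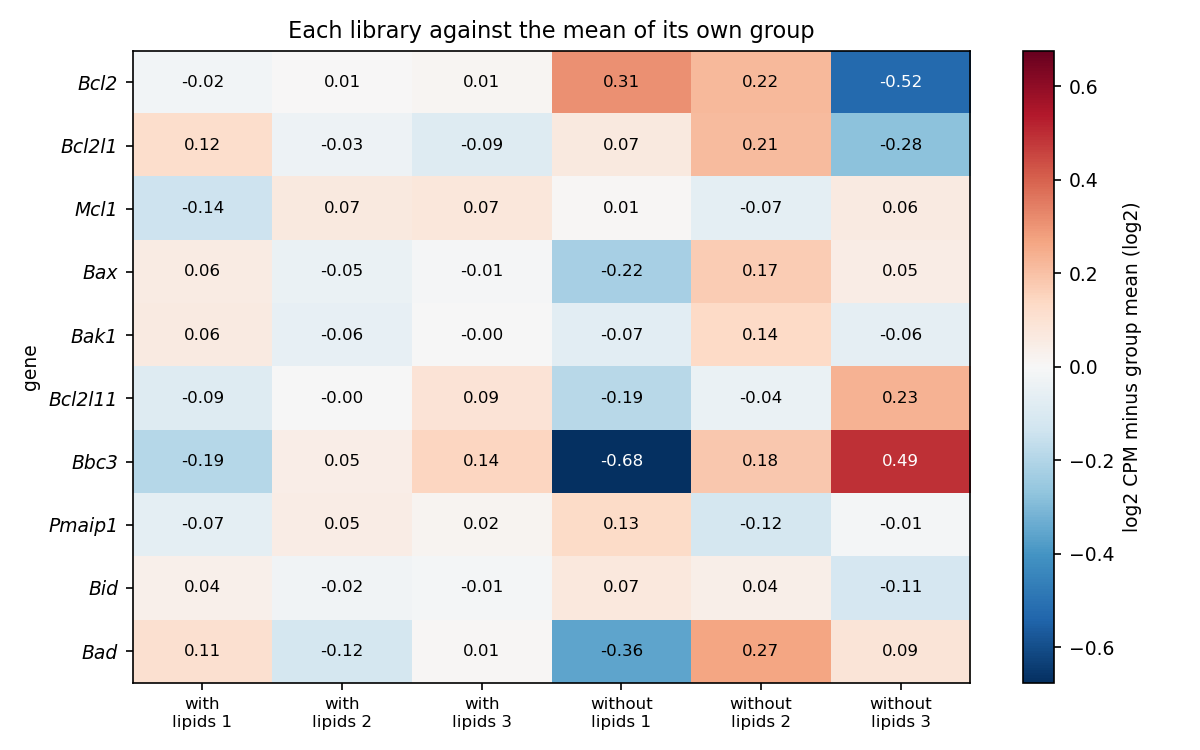
Deviation of each library from the mean of its own group (log2 CPM, colour and number) for the 10 members, with lipids in the left 3 columns and without lipids in the right 3. Replicate 1 without lipids was lowest for Bbc3 (-0.68) and replicate 3 for Bcl2 (-0.52), while libraries with lipids stayed between -0.19 and 0.14.

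Which members passed therefore depended on the library left out. With lipid-free replicate 1 dropped, Mcl1, Bax, Bak1, Bbc3 and Bad were lower and Pmaip1 higher, against 15.1% of genes lower and 12% higher in that fit. There Bax was at -0.27 (edgeR adjusted p = 0.00345), Bad at -0.42 (0.0047), Bbc3 at -0.69 (0.00611) and Bak1 at -0.19 (0.0456). With lipid-free replicate 3 dropped, Bcl2 and Bcl2l1 were lower and Pmaip1 higher, against 6.69% of genes lower and 5.01% higher. In the 3 fits that dropped lipid replicate 2, lipid replicate 3 or lipid-free replicate 2, 0 members passed in edgeR, against 4.96%, 5.62% and 5.55% of genes in either direction. At an unadjusted p under 0.05 each of the 3 had 1 member higher and 1 lower. Dropping lipid replicate 1 left Pmaip1 alone, where 2.03% of genes were higher. The sign of the log2 fold change was the same in all 6 of these fits for 9 members. The exception was Bcl2l11, at 0.0072 with lipid-free replicate 3 dropped.

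**Figure D5:**
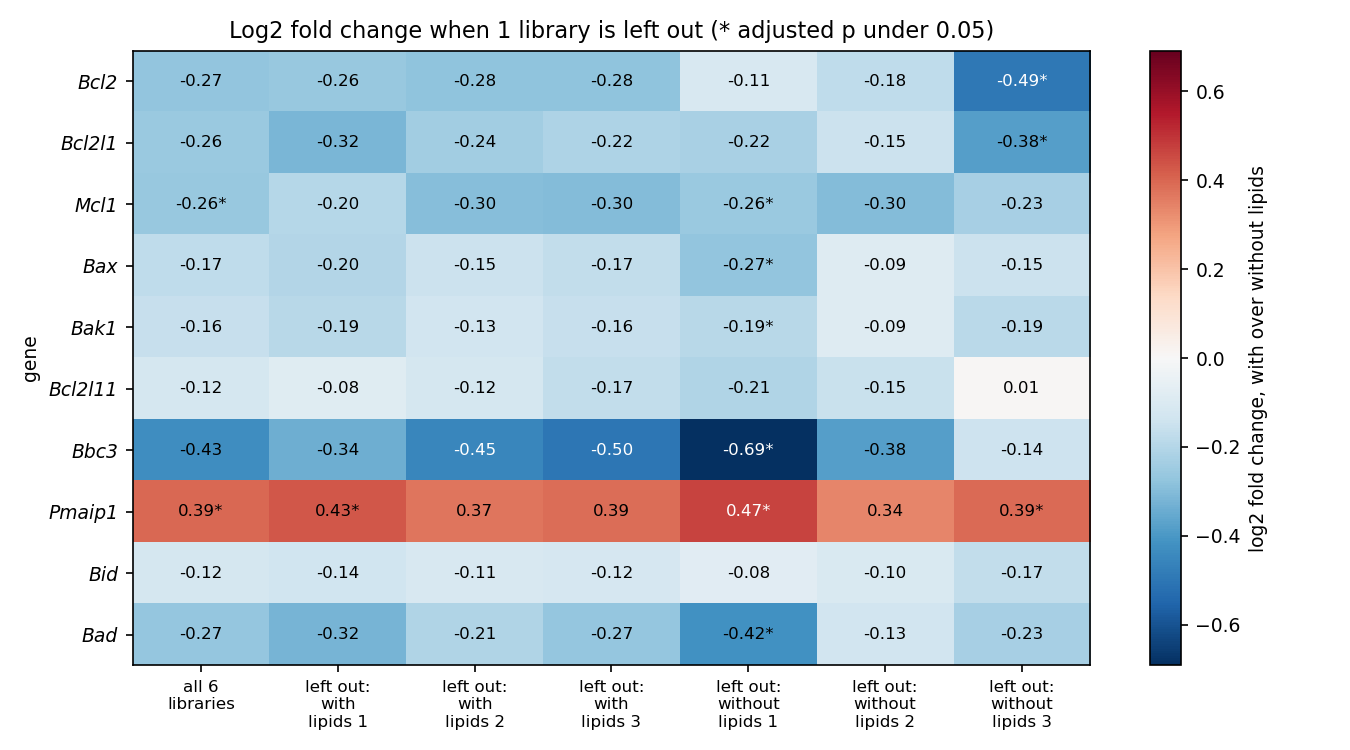
Log2 fold change, with lipids over without lipids, of each member with all 6 libraries and with each library left out (columns), with asterisks where the edgeR adjusted p was under 0.05. Bax, Bak1, Bbc3 and Bad passed, among these fits, only with lipid-free replicate 1 dropped, and Bcl2 and Bcl2l1 only with lipid-free replicate 3 dropped.

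Of 5 further pro-survival genes 3 were tested, and Bcl2a1b, which encodes a form of A1, fell. It was at 3.25, 2.65 and 2.67 CPM with lipids, against 4.57, 4.35 and 4.36 CPM without, or -0.63 on the log2 fold scale (SE 0.14, edgeR adjusted p = 0.0152). The groups did not overlap, but the near-identical copies Bcl2a1a and Bcl2a1d may share its reads, and the call was lost in 3 of 6 fits that left out a library. Bcl2l2, which encodes BCL-W, was at 0.07 (95% interval -0.08 to 0.23, edgeR adjusted p = 0.544). Bcl2a1d, named after its values were seen, held 5 to 23 counts per library and was at -1.23 (edgeR adjusted p = 0.0672). In this list 2 genes were lower without the low-count filter, with the replicate block or with lipid-free replicate 1 dropped. The shares of all genes lower there were 5.42%, 7.34% and 15.1%. Of 9 further pro-death or BH3-like genes 6 were tested and 0 passed with all libraries and the low-count filter, with 0 also at an unadjusted p under 0.05 in edgeR and 0 in DESeq2 or limma-voom after adjustment. Bmf, a BH3-only gene, was at 26.3, 29.8 and 31.9 CPM with lipids, against 17.4, 19.7 and 31.1 CPM without. Replicate 3 without lipids lay with the other group, and the log2 fold change was 0.36 (edgeR adjusted p = 0.223). With that library dropped Bmf was at 0.67 and passed (edgeR adjusted p = 0.00184), as it did without the low-count filter (edgeR adjusted p = 0.00308), and over all 13 alternatives it lay between 0.20 and 0.67. Bok was at 0.39 (edgeR adjusted p = 0.464) at about 1 CPM, and Bnip3 at 0.09 (edgeR adjusted p = 0.417).

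Among the listed apoptosome and caspase genes, Casp2 rose, while Apaf1 and Casp9 did not pass. Casp2, an initiator-type caspase, was at 69.7, 68.8 and 69.2 CPM with lipids, against 59.4, 51.1 and 55.1 CPM without, or 0.33 on the log2 fold scale (SE 0.07, edgeR adjusted p = 0.0114). Casp2 lost its call in 4 of 6 fits that left out a library. The scaffold Apaf1 was at -0.06 (edgeR adjusted p = 0.578) and Casp9, the caspase it activates, at -0.16 (edgeR adjusted p = 0.113), though Casp9 passed with lipid-free replicate 1 dropped (-0.20, edgeR adjusted p = 0.0138). None of 4 listed inhibitors of apoptosis passed, with 1 lower at an unadjusted p under 0.05 in edgeR and 0 in DESeq2 or limma-voom, and Xiap was at 0.04 (edgeR adjusted p = 0.801). With lipid-free replicate 1 dropped, 1 of the 4 was higher (Xiap at 0.17, edgeR adjusted p = 0.0240) and 1 lower. Birc5, which encodes survivin, belongs to the same family but was listed here with the proliferation markers. It was at 46.7, 47.1 and 45.0 CPM with lipids, against 40.4, 35.3 and 31.8 CPM without, and rose by 0.37 on the log2 fold scale (edgeR adjusted p = 0.0201). Of 9 death receptor genes 0 passed in edgeR as reported here and 0 in limma-voom. At an unadjusted p under 0.05 in edgeR, 1 was higher and 2 lower, with no share of all genes given. In DESeq2, and in edgeR with median-of-ratios scaling, library totals alone, no low-count filter or a filter of 1 CPM, 1 was higher, and 1 was higher and 2 lower with lipid-free replicate 1 dropped. The gene nearest the threshold, named after its values were seen, was Casp8, the initiator caspase of this route. Casp8 was at 137, 140 and 133 CPM with lipids, against 125, 115 and 116 CPM without, or 0.20 on the log2 fold scale (edgeR adjusted p = 0.0522). In that list Cflar, the inhibitor of caspase-8, was at -0.16 (edgeR adjusted p = 0.159) and passed with lipid-free replicate 3 dropped (-0.22, edgeR adjusted p = 0.0395), and Fas was at -0.20 (edgeR adjusted p = 0.502).

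Among 12 transcriptional regulators of the family, Stat3 rose and Ddit3 and Atf4 fell. Atf4, a stress-response factor, was at 200, 199 and 201 CPM with lipids, against 248, 258 and 227 CPM without, or -0.29 on the log2 fold scale (SE 0.06, edgeR adjusted p = 0.0122). Ddit3, which encodes CHOP, was at -0.39 (edgeR adjusted p = 0.0297), and Stat3 at 0.29 (edgeR adjusted p = 0.0316). In fits that left out a library, Atf4 and Stat3 passed in 2 of 6 each and Ddit3 in 1 of 6. Ddit3 and Stat3 overlap Mars and Stat5a on the other strand over 68 and 72 exonic bases, and Mars held 9176 counts against 3071 for Ddit3. With library totals alone Ddit3 lost its call (edgeR adjusted p = 0.0562). Trp53, which encodes p53, was at 0.09 (edgeR adjusted p = 0.475) and Foxo3, a regulator of Bcl2l11, at 0.05 (edgeR adjusted p = 0.732).

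Of 9 tested p53 targets, Cdkn1a rose, Gadd45a fell and 7 did not pass. Pmaip1 (0.39) and Bbc3 (-0.43), named above as p53 targets, were counted with the members and not in this list. Of the 9 listed targets, 4 were higher and 1 lower at an unadjusted p under 0.05 in edgeR, with no share of all genes given. Of the 9, 7 had positive and 2 negative log2 fold changes, with a median of 0.21, beside -0.0032 for all tested genes. In edgeR, 3 were called higher with library totals alone, 3 without the low-count filter and 2 with the replicate block. The shares of all genes higher there were 9.72%, 4.4% and 5.6%. Cdkn1a, which encodes the cell cycle inhibitor p21, was at 221, 219 and 213 CPM with lipids, against 161, 161 and 166 CPM without, or 0.42 on the log2 fold scale (SE 0.05, edgeR adjusted p = 0.000591). Gadd45a, a stress-induced growth arrest gene, was at 3.66, 4.15 and 4.21 CPM with lipids, against 8.10, 8.22 and 9.78 CPM without, or -1.12 on the log2 fold scale (SE 0.13, edgeR adjusted p = 0.000292). Both passed in all 13 alternatives. Gadd45a shares 337 exonic bases with E230016M11Rik on the other strand, which held 128 counts against 801. Mdm2, the p53 ubiquitin ligase, was at -0.13 (edgeR adjusted p = 0.238).

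Of 12 regulators that act on BCL2 family proteins 1 fell, Pim1, a kinase that phosphorylates BAD. It was at 31.0, 35.5 and 34.2 CPM with lipids, against 42.5, 46.5 and 46.3 CPM without, or -0.43 on the log2 fold scale (SE 0.08, edgeR adjusted p = 0.00503). Pim1 passed in all 13 alternatives. Of the 12 regulators, 0 were higher and 3 lower at an unadjusted p under 0.05 in edgeR, with no share of all genes given. With lipid-free replicate 1 dropped, 3 of them were called higher and 3 lower, against 12% and 15.1% of all genes. None of 7 mitochondrial partners passed, with 0 at an unadjusted p under 0.05 in edgeR and 0 in DESeq2 or limma-voom, and 1 was higher with lipid-free replicate 1 dropped. Of 8 genes of growth factor survival signalling 1 rose, Csf1, which encodes the macrophage growth factor, at 33.6, 31.1 and 34.1 CPM with lipids, against 23.4, 28.2 and 25.3 CPM without. Its log2 fold change was 0.36 (SE 0.09, edgeR adjusted p = 0.0218), and the call was lost without any 1 library of the group with lipids. The receptor gene Csf1r was at 0.09 (95% interval -0.06 to 0.24, edgeR adjusted p = 0.432). Of the 8 genes, 1 was lower at an unadjusted p under 0.05 in edgeR, with no share of all genes given. After adjustment 1 was lower without the low-count filter and 2 with lipid-free replicate 1 dropped, against 5.42% and 15.1% of all genes. Over all 10 pathway lists outside the members, 5 of 82 tested genes rose and 5 fell, against 4.58% of all tested genes higher and 6.87% lower, and their median log2 fold change was 0.03.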

How the data were processed

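The authors deposited unnormalized read counts by Ensembl gene, with 1 table for each of the 6 libraries. GRCm38.p4 is the build in the submitters' processing notes, which also list TopHat2 2.1.0, HTSeq and DESeq2 but give no roles. No annotation release or strand setting is given in the sources used. The library kit keeps strand and selects mRNA, per the labels. Gene symbols, positions and exon lengths were taken from GENCODE M21 (GRCm38), which matched 46091 of 46603 identifiers; unmatched ones held 0.129% to 0.142% of counts and stayed in the totals. Promoter windows came from RefSeq (GRCm38.p6).

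The test was run in edgeR 4.0.16 under R 4.3.3 (filterByExpr with a minimum count of 10 and a minimum total of 15, TMM factors, quasi-likelihood F test, two-sided, Benjamini-Hochberg adjustment over 12767 genes). A positive log2 fold change means higher with lipids. CPM values use TMM-scaled totals, and the score used a prior count of 2. At the depth of these libraries the upper limit behind a count of 0 (3 counts) equals 0.118 to 0.154 CPM before TMM scaling, which covers counting error only. The edgeR steps were tested on simulated data with 50 genes changed at each size. They recovered 32% of 1.25-fold, 72% of 1.5-fold and 96% of 2-fold changes, with 14 false calls among 12668 genes. Small changes could thus be missed. Groups came from sample titles. Whether replicates were separate mice or wells is not stated, so p-values reflect only how far these libraries differ, which may be technical. All replicate pairs differed beyond sampling noise.

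Alternatives were median-of-ratios scaling, library totals alone, no filter, 1 CPM in 3 libraries, DESeq2 1.42.0, limma-voom (limma 3.58.1), the replicate number as a block and each library left out in turn, and for the score also a prior count of 0.5 and medians over members. The members and gene lists were chosen with earlier results of these data known. Counts at an unadjusted p under 0.05 have no share of all genes beside them and cannot be weighed against a background. Named genes were all members, up to 4 called genes of each pathway list by smallest p, a fixed panel, and those said to be named after their values were seen. Some genes of these lists are not reported here.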

Additional observations from a re-analysis of the deposited data

How the results depend on the processing

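With every library kept, Pmaip1 stayed past the threshold in 7 of 7 alternatives and Mcl1 in 6 of 7. The count of members lower with lipids was 1 in the fit reported, 0 with library totals alone and 2 without the low-count filter, and that of members higher was 1 in each of the 7. Over the fits that left out 1 library, 0 to 5 members were lower and 0 to 1 higher. Across all genes, 585 were higher and 877 lower. Library totals alone gave 1241 genes higher, and no low-count filter 1009, and over fits that left out a library 219 to 1566 genes were higher and 423 to 1975 lower. With library totals alone 596 were lower, so that 67.6% of calls were higher, against 40.0% in the fit reported. The score difference of -0.14 lay between -0.31 and 0.015 when a library was left out, the positive value arising when lipid-free replicate 1 was dropped, and between -0.142 and -0.0884 under the other alternatives. Some log2 fold changes near 0 changed sign. Apaf1 was at 0.015 with library totals alone. With 1 library left out, Bcl2l11 ranged from -0.21 to 0.0072, Foxo3 from -0.0070 to 0.17 and Xiap from -0.017 to 0.17. The cause of these changes was not tested. Replicate numbers were not taken as pairs, since the labels state no block. Deviations of same-numbered libraries had correlations of -0.0141, -0.0874 and 0.176, and those of differently numbered libraries lay between -0.130 and 0.155. With 3 libraries per group these values cannot show whether libraries were paired. With the replicate block, 715 genes were higher and 937 lower, and the members called were again Pmaip1 and Mcl1. Bmf passed under the block (0.40, edgeR adjusted p = 0.0311).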
